A study of Mus musculus with 2 samples.

Results

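The 4 inhibitor of DNA binding genes (Id1, Id2, Id3, Id4) and the 2 inhibitory Smad genes (Smad6, Smad7) were followed through every cell class of the embryonic mouse eye cup. They were chosen by gene symbol, as 6 of the 31053 genes listed in each library, and each symbol was held by a single gene. The data were single-cell RNA-seq counts of unique molecular identifiers (UMIs), molecular tags that let each captured transcript be counted once. One group was Myrf fl/fl (control), with both copies of the transcription factor gene Myrf floxed and no Cre named in its labels. The other was Rx>cre Myrf fl/fl (mutant), the same floxed Myrf with a Cre transgene driven by Rx sequence, which is active in the early eye field and so in the precursors of both neural retina and retinal pigment epithelium (RPE). Eyes were at e15.5, the cornea, lens and optic nerve had been removed, and 3 eye cups were pooled before capture. Each genotype was 1 library, so no test between genotypes was possible and every interval below covers counting error only.

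Id proteins are helix-loop-helix proteins without a DNA-binding region. They pair with E proteins and keep them from forming the dimers with proneural factors that drive differentiation, and Id genes are among the best known direct targets of BMP signalling. Smad6 and Smad7 are induced by BMP and TGF-beta and act back on the same pathways. Smad6 acts mainly on BMP signalling, while Smad7 acts on both branches by blocking receptors and recruiting ubiquitin ligases to them. In the eye, BMP ligands pattern the dorsal optic cup and take part in RPE formation.

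In GENCODE vM21 (GRCm38), Id1 lies at chr2:152736251-152737410 on the plus strand, Id2 at chr12:25093799-25097140 on the minus strand and Id3 at chr4:136143497-136145755 on the plus strand. Id4 lies at chr13:48261228-48266026 on the plus strand and shares its locus with the antisense gene A330033J07Rik and the lincRNA Gm49291 on the other strand. Whether counting used strand was not given in the sources used here, so reads of Id4 and of these partners may not be fully told apart. Smad6 lies at chr9:63953076-64022059 on the minus strand.

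Promoter sequence from RefSeq (GRCm38.p6) was matched for 4 of the 6 members, Id2, Id3, Id4 and Smad6. The 250 bases before the RefSeq start are printed for Id4 and Smad6, 1 gene of each family, because these windows hold no annotated exon. They are given 5′ to 3′ on the strand of the gene, at chr13:48260866-48261115 (plus) and chr9:64022060-64022309 (minus). Capitals mark GGCGCC in Id4, the GC-rich element bound by BMP Smads, and GTCT in Smad6, the Smad-binding letters.
Id4: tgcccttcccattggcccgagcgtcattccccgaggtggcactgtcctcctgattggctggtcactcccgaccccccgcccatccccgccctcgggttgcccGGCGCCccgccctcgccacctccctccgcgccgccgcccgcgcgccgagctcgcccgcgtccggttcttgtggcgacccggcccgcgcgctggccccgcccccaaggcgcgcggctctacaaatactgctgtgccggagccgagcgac
Smad6: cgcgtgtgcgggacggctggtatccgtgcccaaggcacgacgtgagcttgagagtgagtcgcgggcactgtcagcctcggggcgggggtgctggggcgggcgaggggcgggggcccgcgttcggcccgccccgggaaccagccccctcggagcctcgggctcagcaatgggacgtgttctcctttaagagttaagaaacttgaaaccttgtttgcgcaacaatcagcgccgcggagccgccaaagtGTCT
The capitals in Smad6 are the last 4 bases before the start and form the left part of GTCTAGAC, the palindromic Smad-binding element, whose right part is the first 4 transcribed bases. Over the 300 bases from 250 before to 50 after the start, searched on both strands, GTCTAGAC was present in 0.213% of 32851 promoters, and each copy also holds 2 adjacent GTCT matches, 1 on each strand. GGCGCC, its own reverse complement, was 148 bases before the start in Id4 and 231 before it in Id2, and 11.9% of promoters held it. GTCT was present in 88.0% of promoters, and was found in Id2 (23 bases before the start), Id3 (166 and 68 before, 21 after) and Smad6, but not in Id4. The E-box CANNTG, the letters bound by E protein dimers, was in 72.3% of promoters and was found in Id2 (196 before the start) and Smad6 (7 after it). These matches describe letters in a window and are not evidence of binding.

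The control library held 13017 barcodes with a median of 9339 UMIs and the mutant library 13880 with a median of 8702, of which 11518 and 12576 were kept. The 6 genes gave between 977 (Smad6) and 64673 (Id3) UMIs in the control and between 941 and 64492 in the mutant. In all, 69 barcodes occurred in both libraries, 59 of them among kept cells. Xist, the transcript of the inactive X chromosome, was found in 71.7% of control and 27.4% of mutant cells, and a Y-linked UMI in 0.0260% and 41.7%, so the pools differed in the sex of their embryos. Sex and genotype cannot be told apart over all cells. Genotype calls of the members are therefore also given for cells that had Xist but lacked Y-linked UMIs (Xist-only cells). Requiring an Xist UMI also favoured cells with more UMIs. In the control, 197 of 385 RPE-like cells were Xist-only and held 3050 of the 3580 Id3 UMIs of the class. Cells fell into 32 clusters, of which 27 were given 17 class names from marker genes and 14 classes had at least 50 cells in each library. The 5 unnamed clusters held 22.0% of control cells and had a median of only 1166 UMIs. Between 93.0% and 98.3% of each member's UMIs lay in named classes. Myrf itself, counted in RPE-like cells, was at 74.2 counts per 1e+06 UMIs of the class (CPM) in the control (293 UMIs) and 26.1 in the mutant (56 UMIs). The 3′ counts do not tell transcripts that have lost a floxed exon from whole ones.

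Levels are given in CPM over the summed UMIs of a class, which for 3′ counts do not grow with transcript length. Across classes the 6 genes fell into different patterns, and the pattern of each was much the same in both libraries. Id3 was the most abundant member in 10 of the 17 classes in both libraries, among them the vascular, connective, RPE-like and progenitor-like cells. Smad6 reached at most 28.2 CPM, on 19 UMIs in mutant Schwann cell precursor-like cells. Smad7 alone had its highest levels in neurons.

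**Figure D1:**
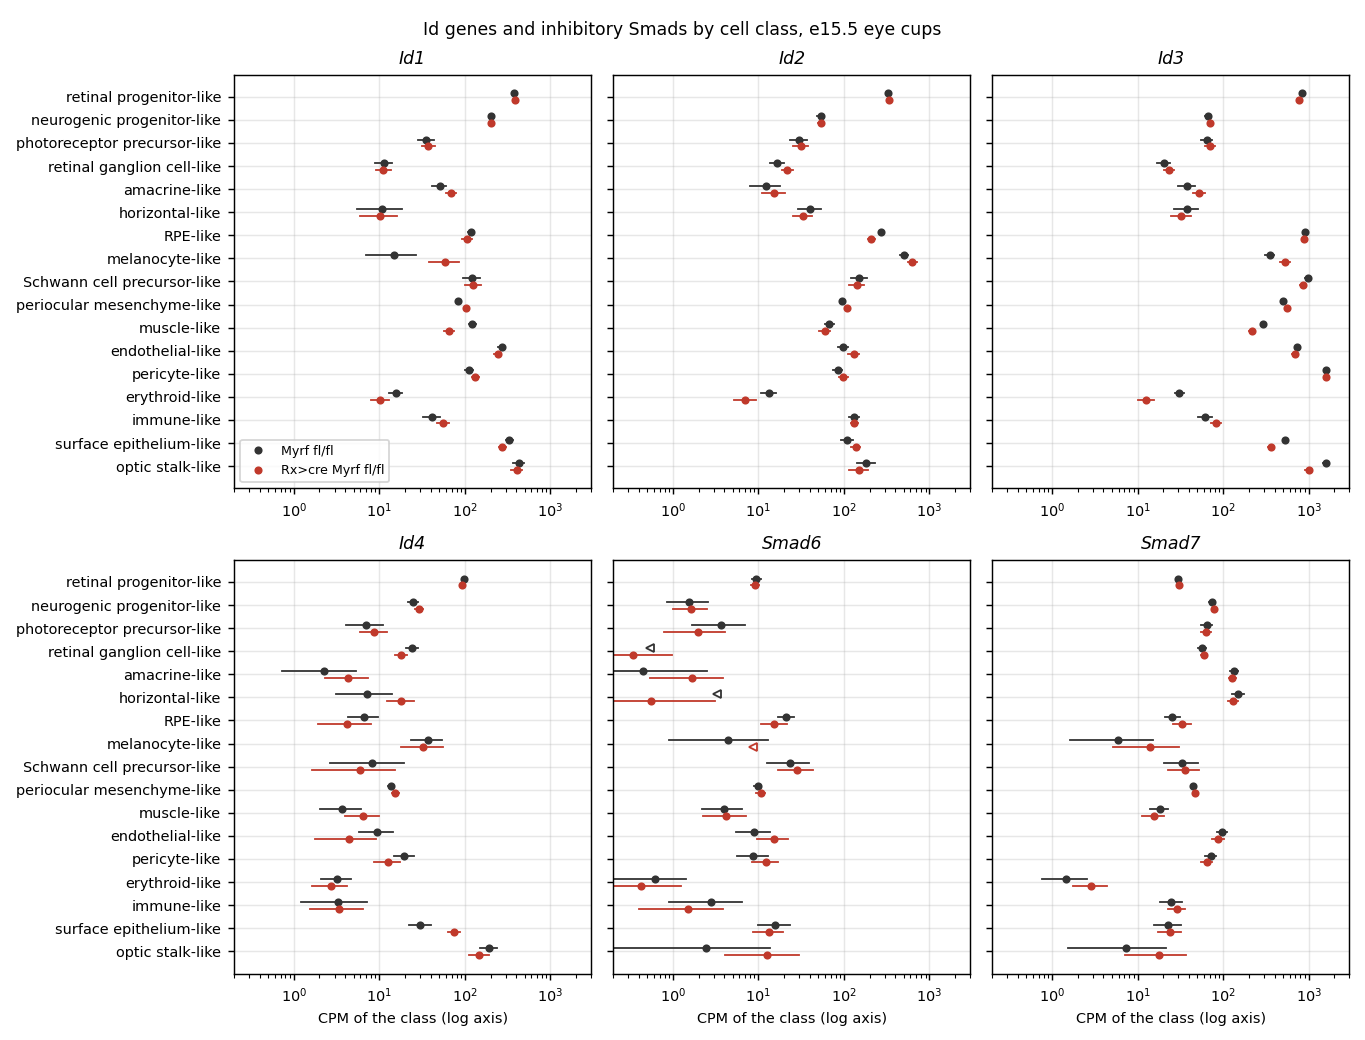
Level of each gene in 17 marker-named classes (log axis, CPM), with control in black, mutant in red and bars for 95% Poisson intervals. Open triangles are upper limits where no UMI was counted. Id1 to Id4 and Smad6 lie lower in the 4 neuron classes than in retinal progenitor-like cells, while Smad7 reaches its highest levels there (151 CPM in control horizontal-like cells).

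Id3 stood at 1595 CPM (1549 to 1642) in control pericyte-like cells, the contractile cells of small vessels, and at 1595 in the mutant. The control RPE-like cells had 907 (878 to 937) and the mutant ones 892 (852 to 932). Retinal progenitor-like cells had 830 and 783, endothelial-like cells 729 and 688, and periocular mesenchyme-like cells 501 and 558. All these classes lay far above the neurons, of which ganglion cell-like cells had 20.2 in the control and 23.5 in the mutant. The highest of the 14 classes was 79.0 times the lowest in the control and 127 times in the mutant, the widest span of any Id gene. Optic stalk-like cells, at 41 and 35 cells too few for comparison, were at 1602 and 1001.

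Id1 was highest in the retinal progenitor-like cells among the 14 classes, at 375 CPM (368 to 383) in the control and 385 (378 to 391) in the mutant. Surface epithelium-like cells followed with 333 and 275 and endothelial-like cells with 269 and 242. Id1 was the one Id gene that remained high in neurogenic progenitor-like cells, which carry proneural genes such as Neurog2 and Atoh7 and are leaving the cell cycle, at 201 and 205. It stood at 118 (108 to 129) and 106 (92.9 to 121) in RPE-like cells. Ganglion cell-like cells were near the lowest, at 11.3 and 11.2, beside horizontal-like cells at 10.7 and 10.1, and these classes did not differ beyond their intervals.

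Id2 was highest in melanocyte-like cells, at 499 CPM in 50 control and 627 in 30 mutant cells. Of the 14 larger classes, progenitor-like cells were first with 332 in the control and 337 in the mutant, followed by RPE-like cells with 272 (256 to 289) and 209 (190 to 230). The pigmented classes and the progenitors thus shared the highest Id2. In immune-like cells Id2, which is known for its part in innate lymphoid development, was at 131 and 133, and there it was the leading Id gene. Amacrine-like cells had the lowest level in the control, at 12.2 against 15.2 in the mutant, while the mutant's lowest class was erythroid-like cells at 7.01.

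Id4 was highest in progenitor-like and optic stalk-like cells. Progenitor-like cells had 96.9 CPM in the control and 92.5 in the mutant, above every other class of at least 50 cells, and the few optic stalk-like cells had 193 and 147. Among the 14 classes surface epithelium-like cells, which are not neural, came next with 30.2 in the control and 75.6 in the mutant, and the 50 control and 30 mutant melanocyte-like cells had 36.8 and 32.9. RPE-like cells, which arise from the same neuroepithelium, held only 26 and 9 UMIs of Id4, or 6.59 and 4.19 CPM. Of the neurons, ganglion cell-like cells had most in the control, at 24.3, and in the mutant they were level with horizontal-like cells (18.0 and 17.9). Amacrine-like cells had 2.26 and 4.31, on 5 and 13 UMIs.

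Smad6 was the scarcest member and its order of classes was poorly resolved. In the control, RPE-like cells led the 14 classes with 21.3 CPM (17.0 to 26.4; 84 UMIs), and the mutant RPE-like cells had 15.4 (10.6 to 21.6; 33 UMIs). Progenitor-like cells had 9.47 and 9.11 and mesenchyme-like cells 9.77 and 10.6. Endothelial-like cells, where Smad6 is a known feedback inhibitor of BMP9 and BMP10 signalling, had 8.91 and 15.1. Every neighbouring pair in the control order of 14 classes overlapped in its intervals (13 of 13), and so did 12 of 13 in the mutant. No Smad6 UMI was found in 413 control ganglion cell-like cells, and 3 in 522 mutant ones.

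Smad7 had a different pattern. Horizontal-like cells led with 151 CPM (129 to 175) in the control and 130 (114 to 148) in the mutant, amacrine-like cells followed with 135 and 128, and these classes did not differ beyond their intervals in either library. Endothelial-like cells had 97.1 and 87.8. Retinal progenitor-like cells, where the Id genes were high, had only 30 and 30.8, and RPE-like cells 25.6 (20.8 to 31.1) and 33.1 (25.8 to 41.7). Erythroid-like cells were lowest, at 1.47 and 2.86.

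The share of cells with at least 1 UMI, after each cell was thinned to 2000 UMIs, followed these levels. In progenitor-like cells Id3 was found in 65.8% of control and 64.6% of mutant cells, Id1 in 46.8% and 48.1%, Id2 in 43.5% and 43.9%, Smad7 in 5.56% and 5.86% and Smad6 in 2.33% and 1.84%. In erythroid-like cells, shown as a class far from these lineages, Id3 was found in 4.84% and 3.15%, Id1 in 1.05% and 1.45%, Smad7 in 0.211% and 0.484% and Smad6 in 0.421% and 0%. The median depths of those classes before thinning were 10214 and 9514 UMIs in progenitor-like cells and 16923 and 16806 in erythroid-like cells. Smad7 was found in 22.1% of control and 22.7% of mutant horizontal-like cells after thinning. Without thinning, 89.7% of control and 89.5% of mutant progenitor-like cells had an Id3 UMI. Id3 in amacrine-like cells, at 5.54% and 5.60% after thinning, lay near the erythroid-like share.

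The mix of Id genes differed between classes as well as their sum. All 4 Id genes together gave 1634 CPM in control and 1597 in mutant progenitor-like cells, of which Id3 made up 50.8% and 49.0%. In neurogenic progenitor-like cells the sum was 346 and 359 and Id1 had become the leading gene, with 58.1% and 57.1%. RPE-like cells had a sum of 1303 and 1211, with Id3 at 69.6% and 73.6%, Id2 at 20.9% and 17.3% and Id1 at 9.06% and 8.77%. In pericyte-like cells Id3 alone gave 88.1% and 86.7%. In melanocyte-like cells Id2 led with 55.4% and 50.4%, and in control ganglion cell-like cells Id4 held its highest share among these classes, 33.6%, against 24.1% in the mutant. The ganglion cell-like sum was small, at 72.3 and 74.4 CPM.

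Over the 14 classes, Pearson's r of log2(CPM + 1) between Id3 and Smad6 was 0.92 in the control and 0.96 in the mutant, and between Id1 and Id3 0.79 and 0.80. Smad7 had no such relation to Id3 (0.0072 and 0.13) or to Smad6 (-0.12 and 0.0405). The 14 points of a library share one suspension, its free RNA and its depth, so these values are descriptions. Over 28 points (14 classes in 2 libraries) and 14026 genes, those most like Id1 were Hes1 (r = 0.928), Tgif1 (0.922) and Cdca7l (0.914), with Hes1 also a naming marker of the progenitors. Yap1 (0.955), Rhod (0.943) and St5 (0.943) were most like Id3. For Id2 they were Gm26669 (0.912), Zfp36l1 (0.906) and Gyg (0.904). Id4 had weaker matches, led by Efcab1 (0.8001), Shc3 (0.787) and Ccdc158 (0.767). Smad6 was most like Id3 itself (0.938), before Hadh (0.937), and Smad7 was most like Spag9 (0.952), Zmiz1 (0.945) and Homer3 (0.944). Within thinned progenitor-like cells, Id1 was found in 52.1% of control and 52.6% of mutant cells with Id3 and in 36.5% and 39.8% of those without it. Id2 was likewise found more often in cells with Id3 (49.8% and 50.1%) than in those without (31.4% and 32.5%).

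The retina at this age holds cycling progenitors, neurogenic progenitors and the first neurons, and the members were compared along that series within each library. A gene was called higher or lower when its CPM ratio passed 1.5 times, the 95% interval of the ratio excluded 1 and at least 20 UMIs were counted. Relative to retinal progenitor-like cells, Id1, Id2, Id3, Id4 and Smad6 were called lower and Smad7 higher in neurogenic progenitor-like cells in both libraries. Among all genes tested 19.6% were called lower and 10.8% higher in the control and 19.7% and 10.7% in the mutant. The same 5 genes were called lower, and Smad7 higher, in each of the 4 neuron classes in both libraries, although Smad6 rested there on at most 9 UMIs a class.

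The size of the step differed between the Id genes. In control neurogenic progenitor-like cells Id3 was 12.4-fold lower (11.5 to 13.5) and Id2 6.22-fold lower (5.68 to 6.83), while Id1 was only 1.86-fold lower (1.77 to 1.96). The mutant had 10.98, 6.27 and 1.88. Id4 was 3.89-fold lower in the control and 3.19-fold in the mutant, and Smad6 6.11-fold (3.58 to 11.4) and 5.57-fold. Smad7 was 2.496 times (2.25 to 2.77) its progenitor level in the control and 2.56 times (2.35 to 2.80) in the mutant. Neurogenic progenitors thus held far more of their progenitor level of Id1 than of Id2 or Id3.

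The neuron classes differed in how far each Id gene lay below its progenitor level. The folds are as counted, with free RNA not subtracted. Ganglion cell-like cells had Id3 41.1-fold lower (34.8 to 49.0) and Id1 33.1-fold lower (26.4 to 42.0) in the control and 33.3-fold and 34.4-fold lower in the mutant, but Id4 only 3.99-fold and 5.15-fold lower. Among all genes tested in these cells 32.5% of the control and 32.9% of the mutant were called lower and 24.2% and 24% higher. In amacrine-like cells Id4 was 42.8-fold lower in the control and 21.5-fold in the mutant, Id2 27.1-fold and 22.1-fold and Id1 7.40-fold and 5.61-fold (all genes: 23.3% and 24.2% lower, 20.3% and 19.4% higher). Horizontal-like cells had Id1 35.1-fold and 38.2-fold lower but Id2 only 8.27-fold and 10.2-fold lower (all genes: 20.9% and 21.5% lower, 26.1% and 28.9% higher). In photoreceptor precursor-like cells the 4 Id genes lay close together, between 10.6-fold and 14.0-fold lower in the control and between 10.3-fold and 11.1-fold in the mutant (all genes: 20.6% and 21.6% lower, 22.1% and 21.4% higher).

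Haemoglobin UMIs in retinal progenitor-like cells put the share of free RNA at 3.08% in the control and 5.35% in the mutant, if free RNA has the make-up of the whole library. With that share subtracted from every class, Id3 in ganglion cell-like cells went from 20.2 to 5.02 CPM in the control and from 23.5 to 0 in the mutant, and Id1 from 11.3 to 6.64 and from 11.2 to 1.12. In mutant horizontal-like cells Id1 went from 10.1 to 0 and Id3 from 32.4 to 7.03. In amacrine-like cells the fold of Id4 went from 42.8 to 79.2 in the control and from 21.5 to 42.1 in the mutant, that of Id2 from 27.1 to 41.75 and from 22.1 to 48.7, and that of Id3 to 36.6 and 27.8. The folds of Id1 and Id3 in ganglion cell-like and horizontal-like cells, of Id2, Id3 and Id4 in amacrine-like cells and, in the mutant, of Id2 in ganglion cell-like and Id3 in neurogenic progenitor-like and photoreceptor precursor-like cells moved by over 1.5 times with this subtraction, and no order among the lowest genes is read from them. Levels that changed little were Id4 in ganglion cell-like cells (24.0 and 16.7 CPM after subtraction), Id1 in amacrine-like cells (47.2 and 61.8) and in neurogenic progenitor-like cells (202 and 206), and Smad7 in horizontal-like cells (154 and 135).

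Smad7 was higher in all 4 neuron classes than in progenitors. It was 5.02 times (4.23 to 5.94) its progenitor level in control horizontal-like cells and 4.496 times (3.92 to 5.14) in control amacrine-like cells, with 4.23 and 4.16 times in the mutant. Photoreceptor precursor-like and ganglion cell-like cells had 2.14 and 1.90 times in the control and 2.06 and 1.93 times in the mutant. No Smad6 UMI was counted in control ganglion cell-like cells. Set to 3 counts, this gave 21.4-fold lower than in progenitors, and the exact 95% limit was at least 17.3-fold. In the mutant 3 UMIs gave 26.9-fold (9.12 to 131).

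**Figure D2:**
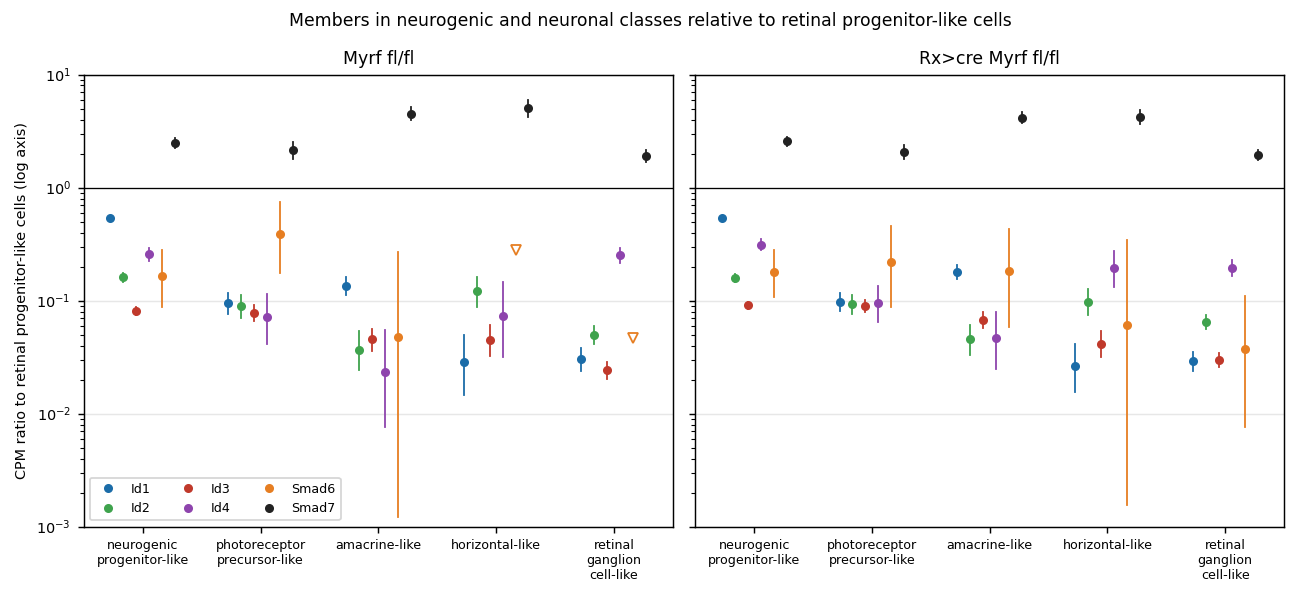
CPM in neurogenic progenitor-like cells and 4 neuron classes divided by that in retinal progenitor-like cells (log axis), 1 panel per library, with 95% counting intervals. Open triangles mark 0 UMIs set to 3 counts. Smad7 lies above 1 in every class (1.90 to 5.02 in the control) and the other 5 genes below 1.

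E proteins, the partners that Id proteins hold, did not follow a single course. Tcf4 was 1.68 and 1.69 times its progenitor level in neurogenic progenitor-like cells and 2.22 and 2.27 times in amacrine-like cells (control and mutant). Tcf12 was called higher in photoreceptor precursor-like cells at 1.62 times in both libraries. Tcf3 was called lower in photoreceptor precursor-like cells (0.548 and 0.528), ganglion cell-like cells (0.332 and 0.439) and horizontal-like cells (0.437 and 0.385). In amacrine-like cells it was called lower in the control (0.593) but not in the mutant (0.713).

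The neurogenic progenitor-like class was made of a pair of clusters. The one led by Neurog2 and Olig2 had Id1 at 253 CPM in 398 control and 247 in 589 mutant cells, against 141 and 146 in the one led by Insm2 and Gadd45a (425 and 550 cells). Smad7 ran the other way, at 66.4 and 71.1 CPM in the former and 84.6 and 89.9 in the latter. Id3 in the cluster led by Insm2 was called higher in the mutant, with 56.1 against 84.6 CPM (ratio 1.51, 1.28 to 1.78, beside 2.19% of all genes in that cluster), and this ratio lay just past the limit of 1.5. In the cluster led by Neurog2 it went the other way, from 75.9 to 61.7 CPM (0.813, 0.706 to 0.936), and was not called. In the Xist-only cells of the cluster led by Insm2 the Id3 ratio was 1.29 (1.01 to 1.63), not called. The ganglion cell-like class also had a pair of clusters, and Id4 was concentrated in the one led by Sncg and Nrn1, with 50.7 CPM in the control and 33.5 in the mutant (ratio 0.661, called lower beside 1.67% of all genes). In the ganglion cell-like cluster led by Cntn2 and Isl1, Id4 was at 2.68 and 5.99 CPM on 10 and 30 UMIs and Id2 at 13.4 and 20.6 CPM, and both were called higher in the mutant (2.24 and 1.53 times, beside 1.82% of all genes). In Xist-only cells Id4 of the former cluster was called lower at 0.478 (0.291 to 0.751, beside 3.04% of all genes), with Id1 (40 and 1 UMIs), Id2 and Id3 also called lower, and Id2 of the latter was at 1.42 (0.864 to 2.28), not called, while Id4 there had only 10 and 5 UMIs. Over the whole class Xist-only cells had Id3 at 0.574 and Id4 at 0.464, both called lower beside 2.27% of all genes.

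The 4 retinal progenitor-like clusters differed in their leading genes and also in the members. Id3 in the control was at 719 CPM in the cluster led by Cenpf and Ube2c, 950 in that led by Ung and Mcm3, 696 in that led by Ccnb2 and Cdc20, and 879 in that led by Fgf15 and histone genes. The mutant had 665, 911, 661 and 820 in the same order, so the cluster led by Ung and Mcm3 had the highest Id3 in both libraries. Id1 in the control ranged from 315 to 426 CPM over these clusters and Id2 from 268 to 395. Id4 ranged more widely, from 69.1 CPM in the cluster led by Ccnb2 and Cdc20 to 115 in that led by Fgf15 in the control and from 54.9 to 113 in the mutant. Smad6 had 7.03 and 11.8 CPM in these clusters in the control, on 24 and 80 UMIs, and Smad7 lay between 29.3 and 30.6. No member was called between genotypes in any of the 4.

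Within progenitor-like cells the members were compared along the dorsal to ventral axis, which BMP from the dorsal side helps to set. Dorsal cells had a UMI of Tbx5, a dorsal transcription factor, and none of Vax2, and ventral cells the reverse. This gave 88 dorsal and 938 ventral cells in the control and 130 and 1356 in the mutant. As a check, Aldh1a1, the dorsal retinoic acid synthase, was 20.2 and 16.1 times higher in dorsal cells, and the ventral synthase Aldh1a3 stood at 0.0505 and 0.0822 times. The median depth was 11842 UMIs in dorsal and 11568 in ventral control cells and 10868 and 10727 in the mutant.

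All members but Smad6 were called higher in dorsal cells of the control, 5 of 6 beside 2.67% of all genes, and all 6 in the mutant beside 2.6%. Called lower in dorsal cells were 2.38% of all genes in the control and 2.29% in the mutant, and no member. By this gate Id3 had the largest ratio of the Id genes in the control, at 1454 CPM in dorsal and 553 in ventral control cells, a ratio of 2.63 (2.49 to 2.78). In the mutant it stood at 1156 and 558, or 2.07 times (1.97 to 2.18), which overlapped the ratio of Id2. The ventral level of Id3 was close in the libraries and the dorsal level was higher in the control, a difference that with 1 library per genotype was not tested.

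Id2 was at 419 CPM against 223 in the control (ratio 1.88, 1.70 to 2.07) and 476 against 238 in the mutant (2.00, 1.85 to 2.16). Id1 was at 483 against 294 (1.64, 1.497 to 1.80) and 507 against 319 (1.59, 1.47 to 1.71). Id4 was at 97.4 against 63.0 (1.55, 1.26 to 1.89) and 101 against 60.9 (1.66, 1.39 to 1.96). All 4 Id genes were therefore dorsal in both libraries. Smad7 was at 45.2 against 25 in the control (1.81, 1.32 to 2.44) and 42.9 against 25 in the mutant (1.72, 1.31 to 2.22). Smad6 rested on 11 dorsal UMIs in the control (1.10, 0.532 to 2.05) and 32 in the mutant (2.48, 1.63 to 3.68).

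Other genes of the pathway showed the same axis. Bambi, a BMP-induced pseudoreceptor, was 7.81 times higher in dorsal control cells (91.2 against 11.7 CPM) and 7.09 times in the mutant. Bmpr1b, a type I BMP receptor, was instead ventral, at 3.54 CPM in dorsal and 53.8 in ventral control cells (ratio 0.0659, mutant 0.0363). A second gate, which set the summed UMIs of Tbx5, Tbx3, Tbx2 and Efnb2 against those of Vax2, Vax1, Aldh1a3 and Ephb2, took in 1014 dorsal and 1093 ventral control cells and 1375 and 1678 mutant cells. By this gate Id3 was 2.07 and 1.93 times higher dorsally, Id2 2.06 and 1.85, Id4 2.04 and 2.04 and Id1 1.53 and 1.45, the last below the limit. Id3, Id2 and Id4 thus did not differ in the control, and no order of the 3 is read from this gate. Smad6 was at 1.34 and 1.33 and so below the limit in both libraries, and Smad7 at 1.44 and 1.62, past it in the mutant alone. The share of all genes past the limit is not given for this gate, and the shares above belong to the first gate. The dorsal BMP ligand Gdf6, with only 14 dorsal UMIs in each library by the first gate, was 20.6 and 15.4 times higher by the second.

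**Figure D3:**
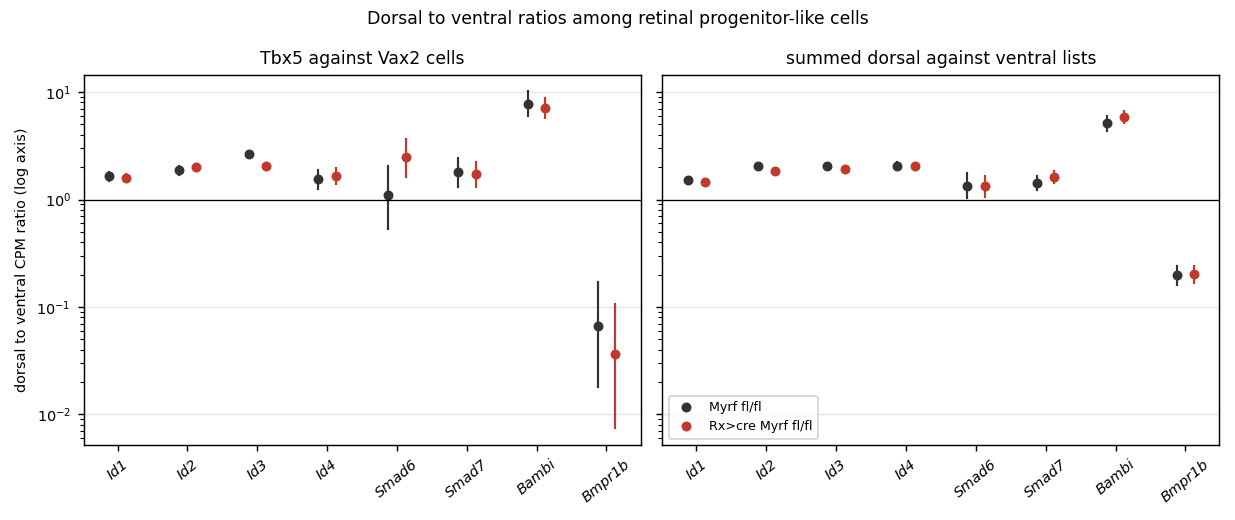
Ratio of CPM in dorsal to ventral progenitor-like cells (log axis) for the 6 genes, Bambi and Bmpr1b, by the Tbx5 and Vax2 gate and by the gate on summed lists, with control in black, mutant in red and 95% counting intervals. The 4 Id genes and Smad7 lie above 1 in both libraries by both gates, and Bmpr1b lies far below it.

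The genotypes were first compared in RPE-like cells, which express Myrf. They numbered 385 in the control and 225 in the mutant, with medians of 7029 and 4316 UMIs. The class was marked by Ttr (2824 and 2812 CPM), Tyrp1 (517 and 444), Rlbp1 (327 and 199), Rdh5 (206 and 150) and Slc16a8 (168 and 89.0). Rpe65, the retinoid isomerase of the mature RPE, had no UMI in either library, and Rgr had 17 and 0. The summed erythroid list stood at 5838 CPM in control and 13414 in mutant RPE-like cells and the progenitor list at 812 and 1184, with 1 of 8 erythroid genes and none of 7 progenitor genes at 0 in each library. Their part in the values below was not tested.

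None of the 6 members was called between genotypes in RPE-like cells, where 2.66% of 11162 genes were called higher and 3.59% lower in the mutant. Id3 was nearly level, with a mutant to control ratio of 0.983 (0.930 to 1.04). Id1 was at 0.900 (0.765 to 1.06). Id2 had an interval below 1, at 272 CPM in the control and 209 in the mutant, on 1073 and 449 UMIs (ratio 0.770, 0.688 to 0.860). The share of RPE-like cells with an Id2 UMI after thinning was 38.0% (32.0 to 44.2) in 258 control and 26.1% (19.1 to 34.1) in 142 mutant cells. Id2 was thus the only member whose interval excluded 1 in these cells, though it fell short of the 1.5-fold limit. It passed that limit under 3 alternatives, with log2 ratios of -0.70 at a mitochondrial limit of 5%, -0.70 without cells over 20000 UMIs and -0.87 in cells up to 2000 UMIs, the last on 51 UMIs and with an interval that included 0.

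The inhibitory Smads were too sparse in RPE-like cells for a firm reading. Smad6 had a ratio of 0.723 (0.468 to 1.09) and Smad7 of 1.29 (0.941 to 1.77), the latter on 101 and 71 UMIs. Id4 had 0.637 (0.263 to 1.40). In the 197 control and 43 mutant RPE-like cells that were Xist-only, Id2 was at 0.814 (0.688 to 0.957) and Id3 at 1.10 (1.02 to 1.19). Among these cells Smad7 was called higher in the mutant, at 1.60 (1.05 to 2.38) on 93 and 35 UMIs, beside 2.45% of all genes called higher in them. When only RPE-like cells with a UMI of the pigment cell gene Pmel were counted (362 and 192 cells), Id2 was at 0.823 (0.734 to 0.922) and Smad7 at 1.40 (1.01 to 1.93). A mitochondrial limit of 5% took the log2 ratio of Smad7 from 0.37 to -0.47 and that of Smad6 from -0.47 to 0.13, on 43 and 26 UMIs. Without cells over 20000 UMIs that of Id1 went from -0.15 to 0.31.

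**Figure D4:**
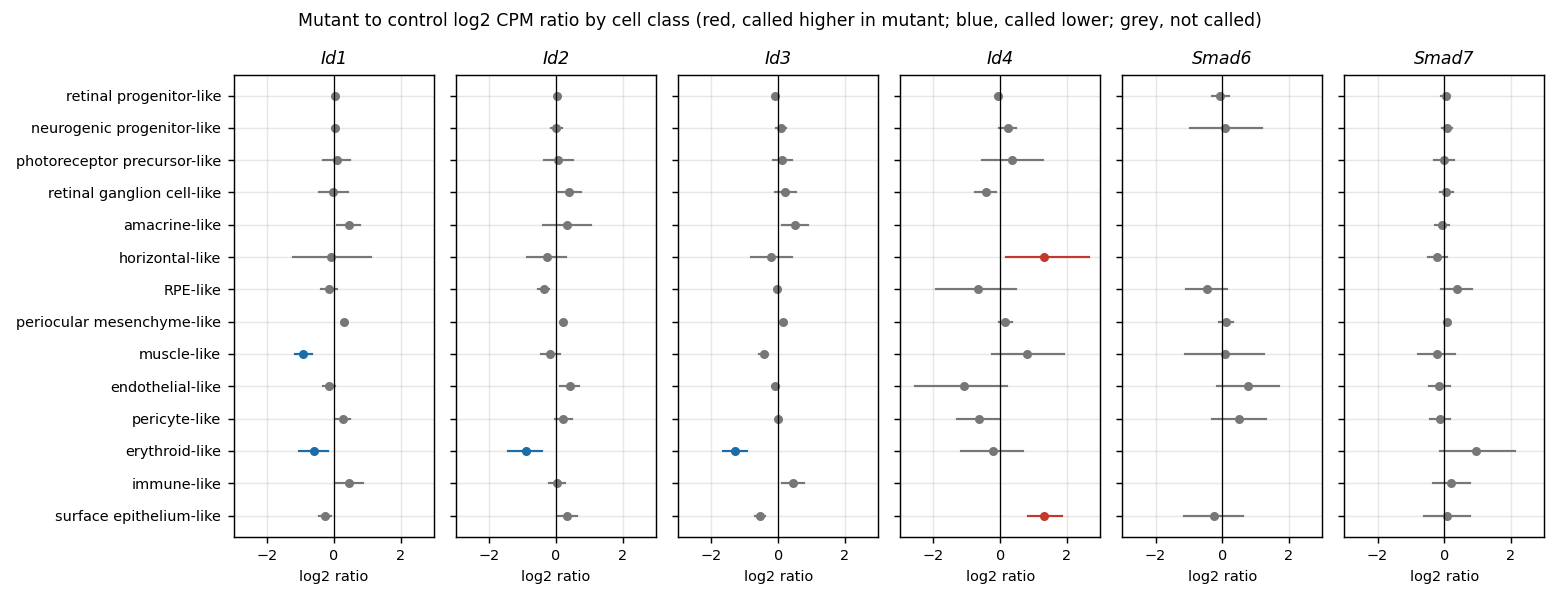
Log2 ratio of mutant to control CPM for each gene in 14 classes, with 95% counting intervals, in red where called higher, blue where called lower and grey otherwise. Of 76 comparisons with at least 20 UMIs, 2 are red and 4 blue, and none of these lies in the RPE-like class.

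The lists of other BMP and TGF-beta genes gave few differences in RPE-like cells. Of 58 genes listed, 42 had at least 20 UMIs there. No ligand (0 of 8) was called, and the antagonists had 3 of 7 called lower. The shares of all genes called in RPE-like cells, given above, are to be read beside these counts and those of the lists below. Fst, which binds activins and some BMPs, was at 0.530 (0.300 to 0.893). Nbl1, a DAN-family BMP antagonist, was at 0.533 (0.307 to 0.888). Wfikkn2, which binds myostatin and GDF11, was at 0.522 (0.305 to 0.857). These 3 ratios rested on 66, 69 and 74 control UMIs and on 19, 20 and 21 mutant UMIs. The 5 richest cells held 68.4%, 40% and 47.6% of the mutant UMIs. The median log2 ratio of the antagonists, -0.65 against -0.06 over all genes tested, was that of Grem1, a BMP antagonist with 26 and 9 UMIs whose interval included 1. Fst was highest in pericyte-like cells (172 and 116 CPM) and Nbl1 in mesenchyme-like cells (131 and 132). The summed list of 12 mesenchyme markers, all detected, stood at 569 CPM in control and 461 in mutant RPE-like cells and the list of 8 pericyte markers, of which 1 and 2 had no UMI, at 51.2 and 51.3, and their part in these ratios was not tested. Without cells over 20000 UMIs the log2 ratio of Nbl1 was 0.09.

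Of the receptors 1 of 10 was called, Bmpr1b, which was higher at 2.92 times (1.54 to 5.71) on 17 and 27 UMIs. Of the 27 mutant UMIs, 17 were in 5 cells. Receptor-activated and common Smads had no call among 5 and a median log2 ratio of -0.26, and E proteins none among 3, with Tcf3 at 0.793, Tcf4 at 0.947 and Tcf12 at 0.821. Ligands and receptors had medians of 0.11 and -0.02. The feedback and target genes had a median of -0.07 and 1 call in 9. This was the homeobox gene Msx1, a BMP target and ciliary margin marker, at 12.7 times (6.72 to 26.5) on 11 and 76 UMIs. The other 7 genes of the ciliary margin list summed to 771 and 850 CPM. Of these Zic1 (26.6 and 86.2), Wfdc1 (15.7 and 46.1), Ccnd2 (211 and 296), Gas1 (214 and 263), Otx1 (53.4 and 60.1) and Wnt2b (4.31 and 4.66) had the higher level in the mutant, and only Rdh10 the lower (246 and 94.1).

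Msx1 came from few cells. It was found in 6 control and 13 mutant RPE-like cells, and 77.6% of the mutant UMIs (59 of 76) were in 5 cells. Those 13 cells had Pmel at 5.72 CPM against 7290 in the other 212 mutant cells and Rlbp1 at 0 against 216. Their Id levels were also unlike those of the rest, with Id3 at 1338 against 852 CPM, Id1 at 154 against 102 and Id2 at 62.9 against 222. The 6 control cells with Msx1 had Id3 at 725 CPM (525 to 977), against 910 in the other 379, and Id1 at 67.5 (18.4 to 173), against 119, which did not differ beyond their intervals. Among cells with a Pmel UMI, a choice made after these values were seen, Msx1 had 2 UMIs in each library. Bmpr1b was still called higher (2.52, 1.14 to 5.69) and Fst (0.465), Nbl1 (0.452) and Wfikkn2 (0.569) lower. In Xist-only cells just Wfikkn2 of these 5 genes was called (0.431), and Msx1 had 9 and 2 UMIs. Bmpr1b there was at 2.39 (0.931 to 5.74) on 16 and 9 UMIs, Fst at 0.617 (0.270 to 1.25) and Nbl1 at 0.761 (0.375 to 1.42). These intervals were wide and included 1.

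**Figure D5:**
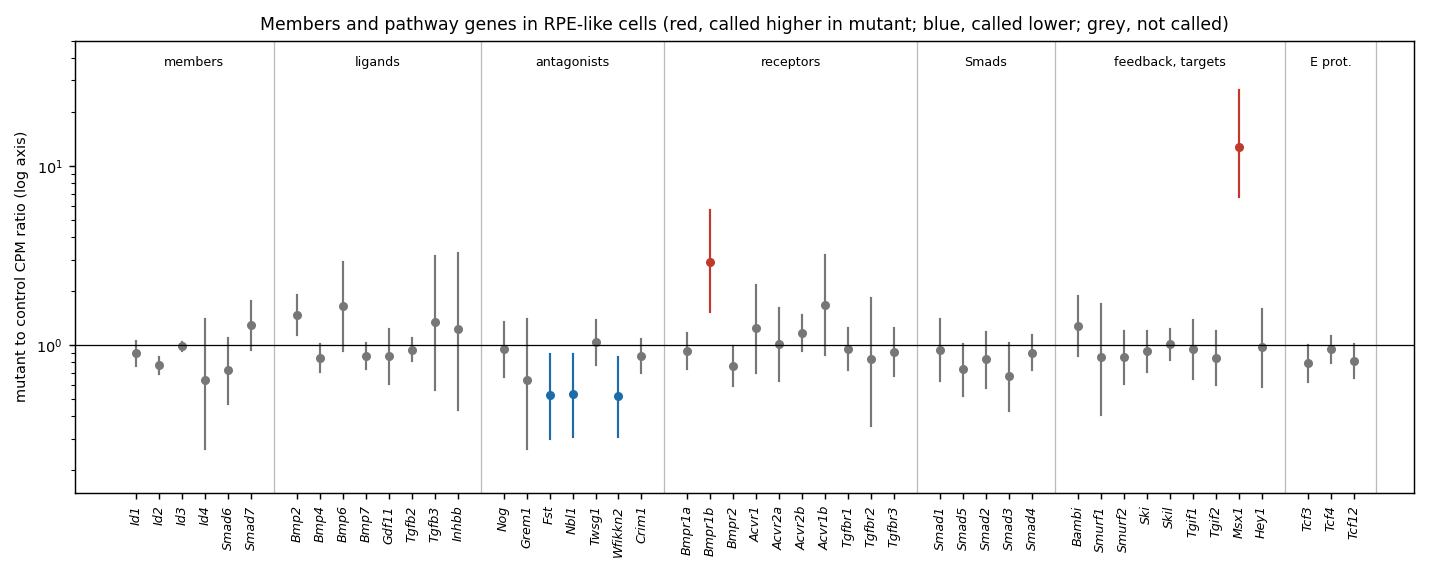
Mutant to control CPM ratio in RPE-like cells (log axis) with 95% counting intervals for the 6 genes and 42 other BMP and TGF-beta genes, grouped by role. The 6 genes lie between 0.637 and 1.29, 3 antagonists lie near 0.53, and Msx1 lies farthest from 1.

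The RPE-like class was also where several ligands were highest. Of the 14 classes, Bmp4 was highest in RPE-like cells, at 98.8 CPM in the control and 83.4 in the mutant, with mesenchyme-like cells next at 24.8 and 30. Bmp7 was at 118 and 103, with horizontal-like cells next at 49.9 and 33.5. Bmp2 was at 35.5 and 52.2, with endothelial-like cells next at 22.3 and 16.9, and its ratio between genotypes of 1.47 (1.14 to 1.90) fell just short of the limit. The BMP antagonist Nog (25.1 and 23.8) and the coreceptor Tgfbr3 (33.4 and 30.8) were highest there too. Bambi was highest in endothelial-like cells (188 and 174).

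Over all 14 classes, 76 of 84 pairs of a member and a class had at least 20 UMIs. Of these, 2 were called higher in the mutant and 4 lower. Intervals included 1 in 53 pairs, and 13 lay wholly above and 10 wholly below it. The share of all genes whose interval excluded 1 is not given, so these interval counts are not read as a result about the members. The count of higher calls became 5 in Xist-only cells (of 71 pairs) and 5 without the mitochondrial limit, and that of lower calls 11 with free RNA subtracted. In retinal progenitor-like cells the 6 ratios lay between 0.943 and 1.03, beside 1.68% of all genes called higher and 1.01% lower. Id3 at 0.943 (0.927 to 0.960) had an interval below 1. Over all cells of a class, neither Smad6 nor Smad7 was called in any of the 14. Of all genes tested, the share called higher in the mutant was 1.38% in neurogenic progenitor-like, 1.64% in photoreceptor precursor-like, 1.63% in ganglion cell-like, 1.52% in amacrine-like, 2.63% in endothelial-like and 2.66% in pericyte-like cells, and the share called lower was 1.36%, 2.33%, 1.42%, 2.16%, 2.63% and 1.91%. Further shares were 3.91% called higher in muscle-like, 3.57% in erythroid-like and 3.38% in immune-like cells (2.99% lower) and 3.61% called lower in surface epithelium-like cells.

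Id1 was called lower in muscle-like cells, the precursors of the extraocular muscles, at 123 CPM in the control and 65.1 in the mutant (467 and 202 UMIs). The ratio of 0.530 (0.447 to 0.626) stood beside 2.04% of all genes. Id3 in the same cells was at 0.739 (0.670 to 0.814). Of the myogenic regulators, Myog was at 881 and 467 CPM, Myod1 at 191 and 167, Myf5 at 143 and 135 and Pax7, which marks muscle progenitors, at 61.3 and 79.3. The erythroid list stood at 1010 CPM in control and 4873 in mutant muscle-like cells and the mesenchyme list at 872 and 1429, and their part in the Id1 ratio was not tested. In Xist-only cells (167 and 40) Id1 was also called lower, at 0.645 (0.495 to 0.829) beside 2.73% of all genes, and Id4, not called over all muscle-like cells, was called higher on 14 and 14 UMIs (4.20, beside 4.18%).

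Id4 was called higher in surface epithelium-like cells, with 30.2 CPM (22.0 to 40.6) in 83 control and 75.6 (63.7 to 89.0) in 110 mutant cells. The ratio was 2.499 (1.77 to 3.59), beside 4.16% of all genes. The 5 richest cells held 43.2% of the control and 58.0% of the mutant Id4 UMIs, with 35 in a single mutant cell, and without cells over 20000 UMIs the log2 ratio fell from 1.32 to 0.26. The libraries also differed in the keratins of this class. The basal keratins Krt5 were at 1130 and 1649 and Krt14 at 643 and 1066 CPM, and the simple epithelium keratins Krt8 at 490 and 263 and Krt18 at 379 and 195. The erythroid list stood at 11238 and 7557 CPM in surface epithelium-like cells, the progenitor list at 477 and 568 and the mesenchyme list at 330 and 278. Their part in the Id4 ratio was not tested. Id3 there had a ratio of 0.680 (0.612 to 0.754) and was not called. In Xist-only cells (72 and 55) Id4 was at 3.37 (2.35 to 4.91), beside 4.45% of all genes called higher, and Id2 was called higher at 1.504 (1.21 to 1.87). In horizontal-like cells Id4 was called higher, with 7.13 and 17.9 CPM on 8 and 32 UMIs (2.51, 1.13 to 6.30, beside 2.63% of all genes), and 75.0% of the control UMIs were in 5 cells. Xist-only horizontal-like cells had 8 and 6 Id4 UMIs, too few to compare, and in them Smad7 was called higher (log2 ratio 0.68, beside 4% of all genes).

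The other 3 lower calls were in erythroid-like cells, for Id1 (0.657), Id2 (0.530) and Id3 (0.408, 0.316 to 0.522), beside 8.32% of all genes. The levels were low, with Id3 at 30.9 and 12.6 CPM, and 41.7% to 69.4% of the UMIs came from 5 cells. The 3 calls lay in the smaller of 2 erythroid-like clusters (168 and 142 cells; 0.528, 0.472 and 0.318), where 25.5% of all genes were called lower. In the larger one (335 and 291 cells) 28.5% of all genes were called higher, and Id1 and Id3, the only members with enough UMIs there, were not called. Hbb-y, an embryonic globin, was at 35217 and 12484 CPM over both clusters. The log2 ratio of Id1 turned to 1.11 without cells over 20000 UMIs and to 0.95 without the mitochondrial limit, and that of Id2 to 0.43 without that limit. With free RNA subtracted the levels of Id1, Id2 and Id3 went to 11.1, 9.13 and 16.1 CPM in the control and to 0.20, 0 and 0 in the mutant, so the mutant counts were about as many as the subtracted share, and the size of these ratios depended on it. Of the 47 control and 14 mutant Xist-only cells, Id3 was called lower (0.523, 0.332 to 0.792, beside 18.1% of all genes), and Id1 (0.868, 0.542 to 1.34) and Id2 (0.816, 0.482 to 1.32) were not. In the 29 and 8 of them in the smaller cluster the ratios were 1.05 for Id1, 1.02 for Id2 and 0.652 (0.414 to 0.988) for Id3, of which the last was called lower beside 20.3% of all genes. The Xist-only cells were few of the 503 and 433 erythroid-like cells and rich in Id1. The 29 and 8 together held 128 Id1 UMIs, while the whole smaller cluster held 114 in the control and 50 in the mutant.

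In periocular mesenchyme-like cells, of which there were 2767 and 1969, the ratios were above 1 but under the limit, at 1.24 (1.18 to 1.30) for Id1 and 1.11 (1.09 to 1.14) for Id3. Here 4.14% of all genes were called higher. The difference was not even across the 5 clusters of the class. In the cluster led by Mfap5, Osr2 and Foxl2 (686 and 516 cells) Id1 was at 65.5 CPM in control cells against 135 in mutant cells (ratio 2.06, 1.84 to 2.30), and Id4 was also called higher at 1.78 (1.32 to 2.42), beside 4.8% of all genes. The other 4 clusters had Id1 ratios of 1.19, 0.959, 1.14 and 1.12. In Xist-only cells of that cluster (671 and 185) Id1 was at 2.33 (2.03 to 2.68) and Id4 at 1.72 (1.13 to 2.58), beside 3.49% of all genes called higher in them.

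Of the other pathway genes, Fst was called in 5 classes. It was lower in neurogenic progenitor-like cells (0.549, beside 1.36% of all genes), ganglion cell-like cells (0.549, beside 1.42%), RPE-like cells and mesenchyme-like cells. In the last it fell from 104 to 66.2 CPM on 4226 and 1932 UMIs (0.635, 0.601 to 0.670, beside 1.49%). In surface epithelium-like cells it was instead called higher (2.28, 1.54 to 3.45). In Xist-only cells Fst was called lower in neurogenic progenitor-like (0.159, on 31 and 2 UMIs) and ganglion cell-like cells (0.333) and higher in surface epithelium-like cells (2.16), while in RPE-like (0.617) and mesenchyme-like cells (0.778, 0.723 to 0.835) it was below 1 but not called.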

How the data were processed

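Single-cell libraries of pooled e15.5 eye cups, 1 per genotype, were grouped by the genotype in the labels. The authors prepared 10x Genomics 3′ libraries, aligned reads to mm10 and deposited raw UMI counts per gene and barcode, not normalized. The submitters' processing notes name Cell Ranger 7.1.0 and Seurat 4.1.1, while headers of the deposited matrices name version 3.1.0. The library totals were 132436812 and 135678970 UMIs, and no deposited barcode had fewer than 500.

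Barcodes with at least 200 genes and at most 15% mitochondrial UMIs were kept, and doublets were removed per library with Scrublet in scanpy 1.11.5. It called 3.55% and 3.40% of barcodes, against 9.55% and 10.4% expected at 0.8% per 1000 barcodes, so doublets remained. The study's stated upper limit of 2000 UMIs per cell was used only as an alternative. The libraries were pooled and clustered, with no integration step, on 1871 variable genes (30 principal components, 15 neighbours, Leiden resolution 1.0). The 6 members, the pathway genes and the marker genes were left out of these features, so a member's level did not shape the classes. Clusters were named "-like" from their marker lists with a minimum score of 1.5. That limit was set after the data were seen.

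UMIs were summed per class and library as CPM with exact 95% Poisson intervals. Ratios had exact conditional binomial intervals and shares exact Clopper-Pearson intervals (scipy 1.17.1). A count of 0 was set to 3 counts for a fold. All genes with at least 20 UMIs were treated alike to give the background percentages, and ratios were checked on simulated data. The simulated counts were Poisson draws for the RPE-like class. They left out the spread of UMIs between cells and so do not test that part of the error. The genes named were the 6 members and, from the pathway lists, those called between the genotypes in RPE-like cells, those highest in that class, E proteins, and genes most like each member. Further pathway genes (Bambi, Bmpr1b, Gdf6, Grem1 and Fst in other classes), other ciliary margin genes and members by cluster were named after their values were seen. The members and lists were chosen with earlier results of these data known. Alternatives were other mitochondrial, depth and doublet limits, other clustering resolutions, Xist-only cells and other denominators. Free RNA subtraction (3.08% and 5.35% of UMIs in progenitor-like cells by haemoglobin) and removal of the 5 richest cells were further alternatives. The count of RPE-like cells with a Pmel UMI was added after seeing the data. Samples of other ages were not analysed here.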

Additional observations from a re-analysis of the deposited data

Results flagged for a closer look

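Y-linked transcripts were found in 41.7% of kept mutant cells and in 0.0260% of kept control cells, while Xist was found in 27.4% and 71.7%. These genes took no part in the comparisons of the Id genes and inhibitory Smads. Of kept cells, 8253 control and 3027 mutant cells had Xist and no Y-linked UMI, and the values in them stand beside each called difference of the 6 genes between the libraries.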

How the results depend on the processing

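No paired analysis was possible because each genotype was 1 library. Of 936 mutant to control log2 ratios of members and RPE pathway genes under the alternatives, 836 stayed within the counting interval of the value reported. In all, 101 had the other sign, among them 4 of results called as higher or lower. Id2 in RPE-like cells stayed below 0 under all 13 alternatives (-0.87 to -0.28). Few UMIs limit Smad6, and Id4 in RPE-like cells and neurons.

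With a mitochondrial limit of 5%, the RPE-like log2 ratios were -0.39 for Id1, -0.70 for Id2, -0.20 for Id3, 0.13 for Smad6 and -0.47 for Smad7. Without cells over 20000 UMIs they were 0.31 for Id1, -0.70 for Id2 and 0.14 for Id3, and 0.087 for Nbl1, which turned direction. With only cells up to 2000 UMIs, the limit that leaves the shallowest cells, they were 0.092, -0.87 and -0.16 for Id1, Id2 and Id3. Id3 was at -0.11 with doublets kept and at 0.14 in Xist-only cells. In erythroid-like cells Id1 turned to 0.95 without the mitochondrial limit and to 1.11 without cells over 20000 UMIs, and Id2 to 0.43 without the mitochondrial limit. In the smaller erythroid-like cluster Id1 and Id2 turned to 0.074 and 0.033 in Xist-only cells (29 and 8), an alternative added after the values were seen. The cause was not tested for any of these.

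The number of pairs of a member and a class called higher in the mutant was 2, and became 5 without the mitochondrial limit, 4 without cells over 20000 UMIs, 0 with cells up to 2000 UMIs, where only 10 pairs could be compared, 5 in Xist-only cells and 1 with a minimum of 50 UMIs. The number called lower was 4 and became 0 with cells up to 2000 UMIs and 11 with free RNA subtracted. The pathway genes called higher in RPE-like cells fell from 2 to 1 with a minimum of 50 UMIs.

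Of the dorsal to ventral log2 ratios, the gate on summed lists gave 0.54 for Id1 in the mutant, 1.05 and 0.95 for Id3 in control and mutant, 1.03 for Id4 in both and 0.41 for Smad6 in the mutant. Thinning each cell to 2000 UMIs gave 0.86 for Id1 and 1.66 for Smad7 in the control and 2.88 for Smad6 in the mutant, the last on 29 UMIs.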

Other observations

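The 5 unnamed clusters, which entered no class, also held members. The largest (1082 control and 1207 mutant cells) had Id3 at 548 and 441 CPM, Id1 at 247 and 250 and Id4 at 69.6 and 54.9. The next (644 and 622 cells) had Id3 at 632 and 617 CPM, Id1 at 185 and 203 and Id2 at 186 and 175. The third (522 and 531 cells) had Id3 at 938 and 842 CPM with little Id4 (17.8 and 19.9). The fourth (278 and 328 cells) was low in Id3, at 44.7 and 76.4 CPM, and had Smad7 at 36.6 and 27.9. The smallest, of 10 and 9 cells, had Id2 at 401 and 212 CPM and no more than 3 UMIs of Id1, Id3 or Id4 in either library.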
